A study of Mus musculus with 6 samples.

Results

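The 45 genes described here drive or restrain the cell cycle, or carry out p53 signalling and apoptosis. They were taken as a named list from mouse protein-coding genes, 21887 of which lie on chromosomes 1 to 19, X and Y in the RefSeq annotation of GRCm38.p6, the build with the coordinates of mm10. All 45 were matched by symbol. They were split by role into 11 cyclins and cyclin-dependent kinases, 6 kinase inhibitors, 9 genes of the Rb, E2f and Myc families and 19 genes of p53 signalling and apoptosis. The window of a gene is its body with 10 kb on either side, and a gene held a peak when any base of a listed peak fell in that window.

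The data were peak lists from methyl-CpG immunoprecipitation with sequencing, in which MBD2-Fc protein captures methylated, CpG-rich DNA fragments. The cells were I/11, a mouse erythroblast line made from p53-deficient fetal liver (day E12.5), so every group is p53-deficient. Before differentiation all groups were grown with 1 U/ml Epo, 100 ng/ml stem cell factor (SCF) and 1 uM dexamethasone. The labels do not name the allele, and a list of methylated regions does not check it. Lentivirus delivered short hairpin RNA 133 or 14, both aimed at Plcg1, a phospholipase downstream of the erythropoietin (Epo) receptor, and infected cells were kept under puromycin (1 ug/ml) for 48 h.

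The 4 groups were hairpin 133 at 24 h of differentiation in medium with 10 U/ml Epo (96 h after infection), hairpin 14 at 24 h, hairpin 133 at 0 h (72 h after infection) and hairpin 14 at 0 h. Each group was 1 library, with 2960, 2666, 3900 and 3437 listed peaks in that order. A scrambled hairpin was also used at each time, and those libraries were not analysed here. The lists give positions only, with no height or direction, so a peak stands for a region the authors listed for that library. Whether it marks a gain or a loss of methylation cannot be read from the lists, since what the peaks were called against is not stated. With 1 library a group there is no replicate spread, no difference below was tested, and each is a description of these lists.

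In dividing cells, D-type cyclins with Cdk4 or Cdk6 and cyclin E with Cdk2 phosphorylate Rb proteins, which frees E2f factors to switch on genes of DNA synthesis. Inhibitors of the Ink4 and Cip/Kip families hold these kinases back. p53 acts on the same circuit by inducing Cdkn1a, and on cell death by inducing Bcl2-family genes such as Pmaip1 and Bbc3, while Mdm2 and Mdm4 restrain p53. Erythroblasts leave the cycle after a few last divisions under Epo, and methylation of CpG-dense start sites, at Cdkn2a among others, is a known way in which cell cycle genes are silenced in cultured and tumour cells.

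Of the 45 genes, 19 held a peak in at least 1 list (26.0% of all protein-coding genes did). Ccnd1 (cyclin D1), Cdkn2a (the Ink4a and Arf inhibitors) and Rb1 (the retinoblastoma protein) held a region present in all 4 lists, 3 of 45 genes against 1.28% of all genes. Cdk6, a kinase partner of D-type cyclins, and Pmaip1, the p53-induced death gene also called Noxa, each had a peak in 3 lists, so 5 of 45 genes had peaks in at least 3 lists (4.79% of all genes). A further 10 genes had a peak in exactly 1 list (14.9% of all genes). Ccna2, E2f2, Trp63 and Bcl2l11 had peaks in 2 lists. Trp53 itself had a peak in none.

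**Figure D1:**
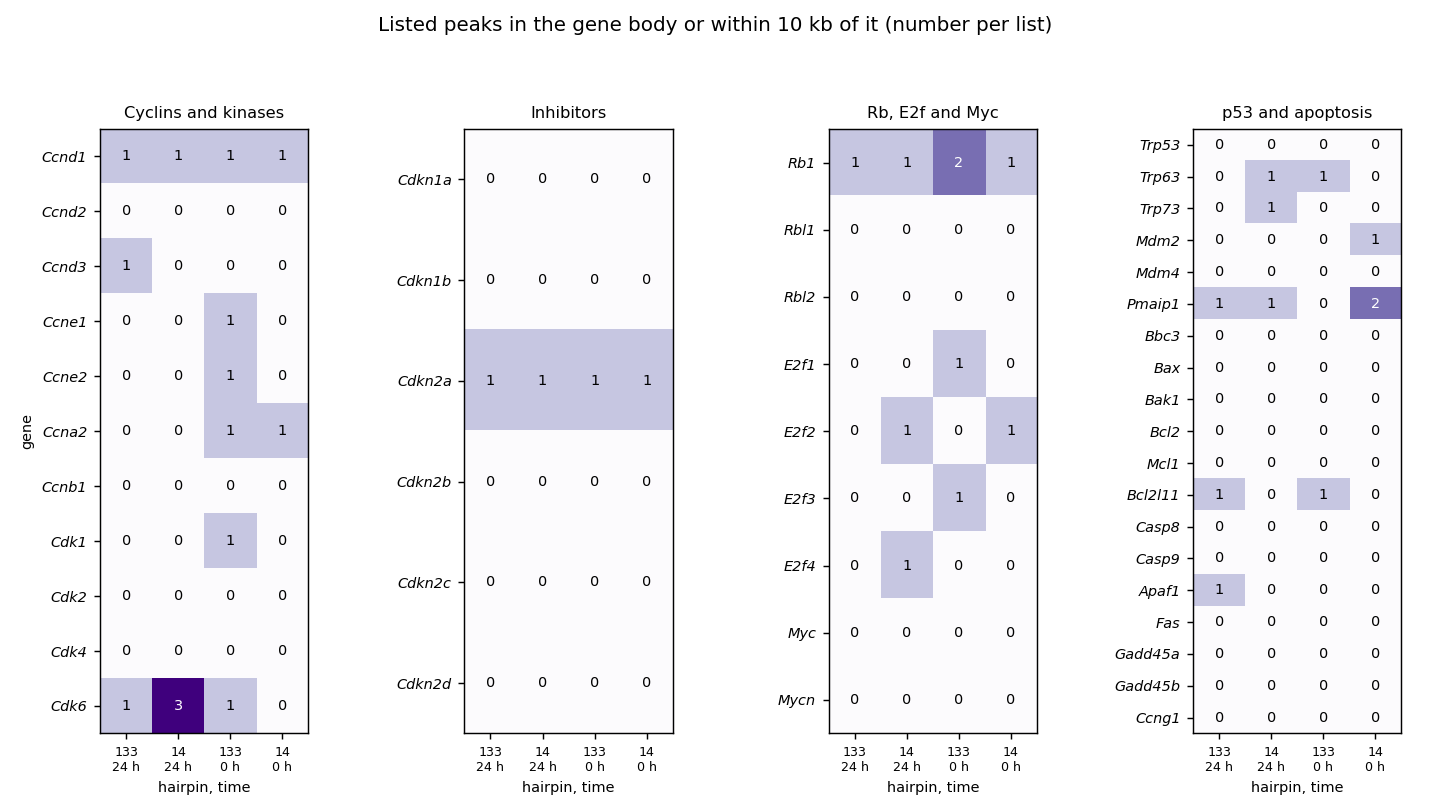
Number of listed peaks in the window of each of the 45 genes (rows, by role) in each list (columns, hairpin and time). Ccnd1, Cdkn2a and Rb1 have a peak in every column, Cdk6 has 3 peaks with hairpin 14 at 24 h, and Cdkn2a is the only inhibitor with any.

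By list, 8 of the 45 genes had a peak with hairpin 133 at 24 h (10.5% of all protein-coding genes), 9 with hairpin 14 at 24 h (9.72%), 12 with hairpin 133 at 0 h (12.7%) and 7 with hairpin 14 at 0 h (11.0%). With hairpin 133 this was 17.8% of the 45 at 24 h and 26.7% at 0 h, and with hairpin 14 it was 15.6% at 0 h, with the 24 h value between those of hairpin 133. A region of both hairpins lay in the window of 5 genes at 24 h (3.38% of all genes) and of 4 genes at 0 h (4.61%). The share of the 45 was above that of all genes in all 7 counts, with small numbers behind each. The shared regions come from the same peaks as the counts by list, so the 7 counts are not separate results. The genes were also chosen with earlier results of these data known. The windows of the 45 genes covered 2.54 Mb and held 3.14, 4.32, 5.11 and 3.14 peaks per Mb in the same order of lists, against 1.70, 1.59, 2.16 and 1.87 peaks per Mb over the windows of all protein-coding genes. Peaks in these windows made up 0.270% of the list of hairpin 133 at 24 h (exact Clopper-Pearson 95% interval 0.117 to 0.532%), 0.413% with hairpin 14 at 24 h (0.206 to 0.737%), 0.333% with hairpin 133 at 0 h (0.178 to 0.569%) and 0.233% with hairpin 14 at 0 h (0.101 to 0.458%). The intervals cover counting error only, and they overlap one another.

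**Figure D2:**
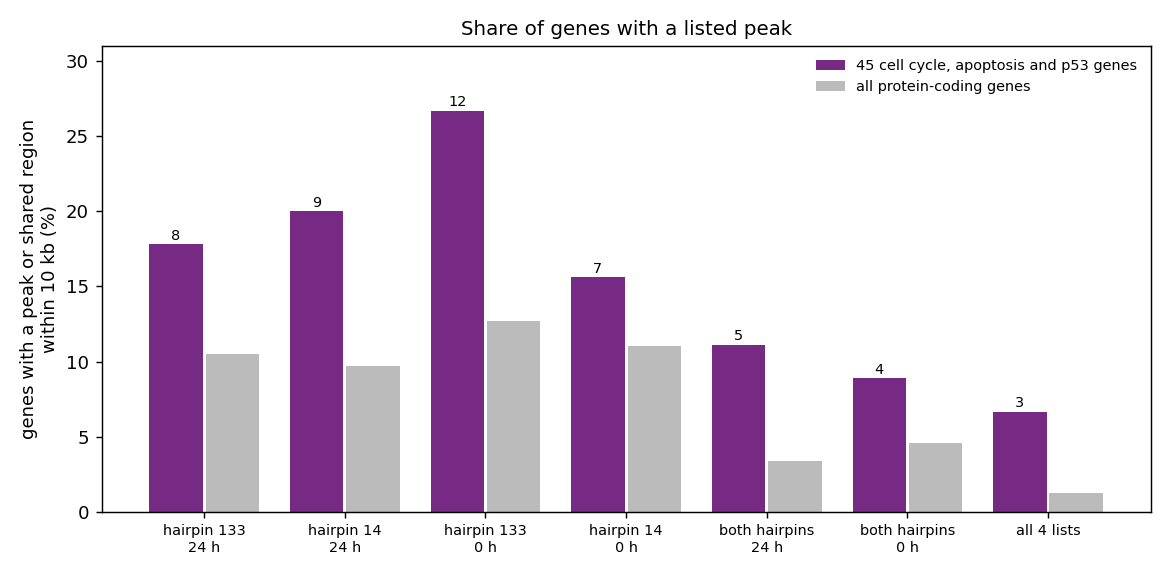
Percentage of the 45 genes (dark bars, with the number of genes above) and of all protein-coding genes (grey bars) that have a peak, or a region shared by lists, in the body or within 10 kb. The dark bar is the taller in each pair, from 26.7% against 12.7% with hairpin 133 at 0 h to 6.67% against 1.28% for regions in all 4 lists.

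The gap to all genes, as a difference in percentage points, was narrower in each list once positions that both hairpins shared to the base were left out. It narrowed least with hairpin 133 at 0 h. Peaks of identical start and end in both lists of a time were 23.3% of the list of hairpin 133 at 24 h, 25.9% of hairpin 14 at 24 h, 24.6% of hairpin 133 at 0 h and 27.9% of hairpin 14 at 0 h. Without them 4 of the 45 genes had a peak with hairpin 133 at 24 h (8.05% of all genes), 5 with hairpin 14 at 24 h (7.20%), 10 with hairpin 133 at 0 h (9.90%) and 4 with hairpin 14 at 0 h (8.09%). These counts are 8.89%, 11.1%, 22.2% and 8.89% of the 45. The sources used here do not say whether the lists of a time share a control library, and its part in the identical positions was not tested.

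Cyclins and their kinases, the group that moves the cycle forward, held peaks at 7 of 11 genes, 63.6% against 26.0% of all genes. There were 3 with hairpin 133 at 24 h (10.5% of all genes), 2 with hairpin 14 at 24 h (9.72%), 6 with hairpin 133 at 0 h (12.7%) and 2 with hairpin 14 at 0 h (11.0%). In the wider pathway list given below, 3 of 21 further genes of this role held a peak in any list (26.0% of all genes). With hairpin 133 at 0 h, 2 of those 21 did (12.7% of all genes), so the higher share of the 11 was not seen there. With the gene body alone, 3 of the 11 held a peak in any list, 27.3% against 18.4% of all genes. Where a peak counted only for its nearest gene, Ccna2 and Ccnd3 had none. Ccnd1 (chr7:144929931-144939831) had 1 peak in each list, all at its higher-coordinate end. The peak spanned 144939572 to 144939722 with both hairpins at 24 h, and 144939699 to 144939849 with both hairpins at 0 h. The centre lay 0.184 kb inside the gene end at 24 h and 0.057 kb inside it at 0 h, where the peak also ran past the annotated end. The 24 h and 0 h peaks of Ccnd1 overlapped by 24 bp only, the smallest overlap between lists at any of the 45 genes. Where shared peaks had to overlap by 50% of their width, Ccnd1 no longer had a region in all 4 lists, and Cdkn2a and Rb1 were left.

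Cdk6 (chr5:3341004-3531008) is one of the longest of the 45 genes, with a body of 190.0 kb. With hairpin 14 at 24 h it held 3 peaks, at 3342845 to 3342995, 3397089 to 3397239 and 3445201 to 3445351. With hairpin 133 at 24 h it held 1, at 3445192 to 3445342, and with hairpin 133 at 0 h 1, at 3488584 to 3488734. The list of hairpin 14 at 0 h had none within 2010 kb of Cdk6. Only the region from 3445192 to 3445351, deep in the gene body and 101 kb past the RefSeq start, was shared, by both hairpins at 24 h with an offset of 9 bp. The lowest of the peaks lay 0.973 kb before the RefSeq start, and still inside the annotated gene, which begins upstream of that start.

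The other cyclin genes had peaks in 1 or 2 lists, mostly of hairpin 133 at 0 h. Ccne1, a cyclin E gene needed for entry into S phase, had a peak in its body at 38099045 to 38099195 on chromosome 7 in that list. Ccne2, its paralogue, had a peak 7858 bp below its body on chromosome 4, within a long noncoding RNA gene, and Cdk1, the mitotic kinase, had a peak 9510 bp above its body on chromosome 10, both in that list alone. The centre of the Ccne2 peak was also 8.12 kb from Trp53inp1, a gene of the wider pathway list given below, and counts for both genes. Ccna2 (cyclin A2) had peaks with both hairpins at 0 h that barely entered its window, 4 bases with hairpin 133 and 15 bases with hairpin 14, and that lay within the neighbouring gene Exosc9. Ccnd3, the D-type cyclin that in mice sets the number of last erythroblast divisions, had a peak with hairpin 133 at 24 h only, 3463 bp below its body and within the neighbouring gene Taf8. Ccnd2, Ccnb1, Cdk2 and Cdk4 had none in any list.

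Among the 6 kinase inhibitors Cdkn2a alone held a peak, which is 16.7% against 26.0% of all genes in any list. Cdkn2a did so in every list, so the share was 16.7% in each, against 10.5% and 9.72% of all genes at 24 h (hairpins 133 and 14) and 12.7% and 11.0% at 0 h. Cdkn2a (chr4:89274473-89294619, minus strand) makes Ink4a, an inhibitor of Cdk4 and Cdk6, and Arf, an inhibitor of Mdm2, from separate first exons, that of Arf lying upstream of that of Ink4a. RefSeq gives it 2 start sites 12.4 kb apart. The peak spanned 89281960 to 89282110 with both hairpins at 24 h and 89281966 to 89282116 with both hairpins at 0 h, an offset of 6 bp. Its centre was 157 bp past the start site inside the gene at 24 h and 151 bp past it at 0 h. The promoter window of the start site at the upstream end of the gene had no peak nearer than 12454 bp in any list.

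The promoter windows of Cdkn2a show how these start sites differ in CpG, the dinucleotide that the capture protein binds when it is methylated. Windows run from 250 bases before to 50 bases after a RefSeq start on GRCm38.p6, 5′ to 3′ on the strand of the gene, with every CpG in capitals. The peaks lay 27 to 33 bp beyond the last base of the first window, so their own bases are not shown. These windows were chosen after the peaks had been seen.
Cdkn2a, inner start site, chr4:89282143-89282442, minus strand: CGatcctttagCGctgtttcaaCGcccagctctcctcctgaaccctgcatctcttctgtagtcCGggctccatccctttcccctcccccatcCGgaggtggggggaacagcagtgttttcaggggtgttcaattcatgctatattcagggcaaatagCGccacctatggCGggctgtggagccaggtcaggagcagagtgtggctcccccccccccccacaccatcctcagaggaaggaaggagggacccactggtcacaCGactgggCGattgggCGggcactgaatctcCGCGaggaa
Cdkn2a, outer start site, chr4:89294570-89294869, minus strand: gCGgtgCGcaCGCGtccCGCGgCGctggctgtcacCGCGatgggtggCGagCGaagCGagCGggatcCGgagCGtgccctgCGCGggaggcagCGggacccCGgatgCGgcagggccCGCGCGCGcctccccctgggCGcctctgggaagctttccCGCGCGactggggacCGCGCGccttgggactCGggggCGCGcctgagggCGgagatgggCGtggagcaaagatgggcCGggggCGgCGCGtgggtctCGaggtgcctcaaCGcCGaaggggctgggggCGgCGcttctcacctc
The window at the inner start, beside the peaks, held 12 CpG and the window at the outer start 45, so the listed region adjoined the less CpG-rich of these starts. The GC box GGGCGG, searched on both strands and itself containing a CpG, occurred 1 time in the inner window and 3 times in the outer one, and 46.2% of the windows of all protein-coding genes hold it.

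Cdkn2b, the Ink4 inhibitor gene next to Cdkn2a with 11.7 kb between them, had no peak in its window, and its nearest peak in each list was 24.2 kb away, the one in Cdkn2a. Cdkn1a (Cip1), the main p53-induced inhibitor, had its nearest peak 106 kb away with hairpin 133 at 24 h, 419 kb with hairpin 14 at 24 h and 137 kb with each hairpin at 0 h. Cdkn1b (Kip1) had none nearer than 32.7 kb, Cdkn2c none nearer than 91.4 kb and Cdkn2d none nearer than 111 kb in any list.

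**Figure D3:**
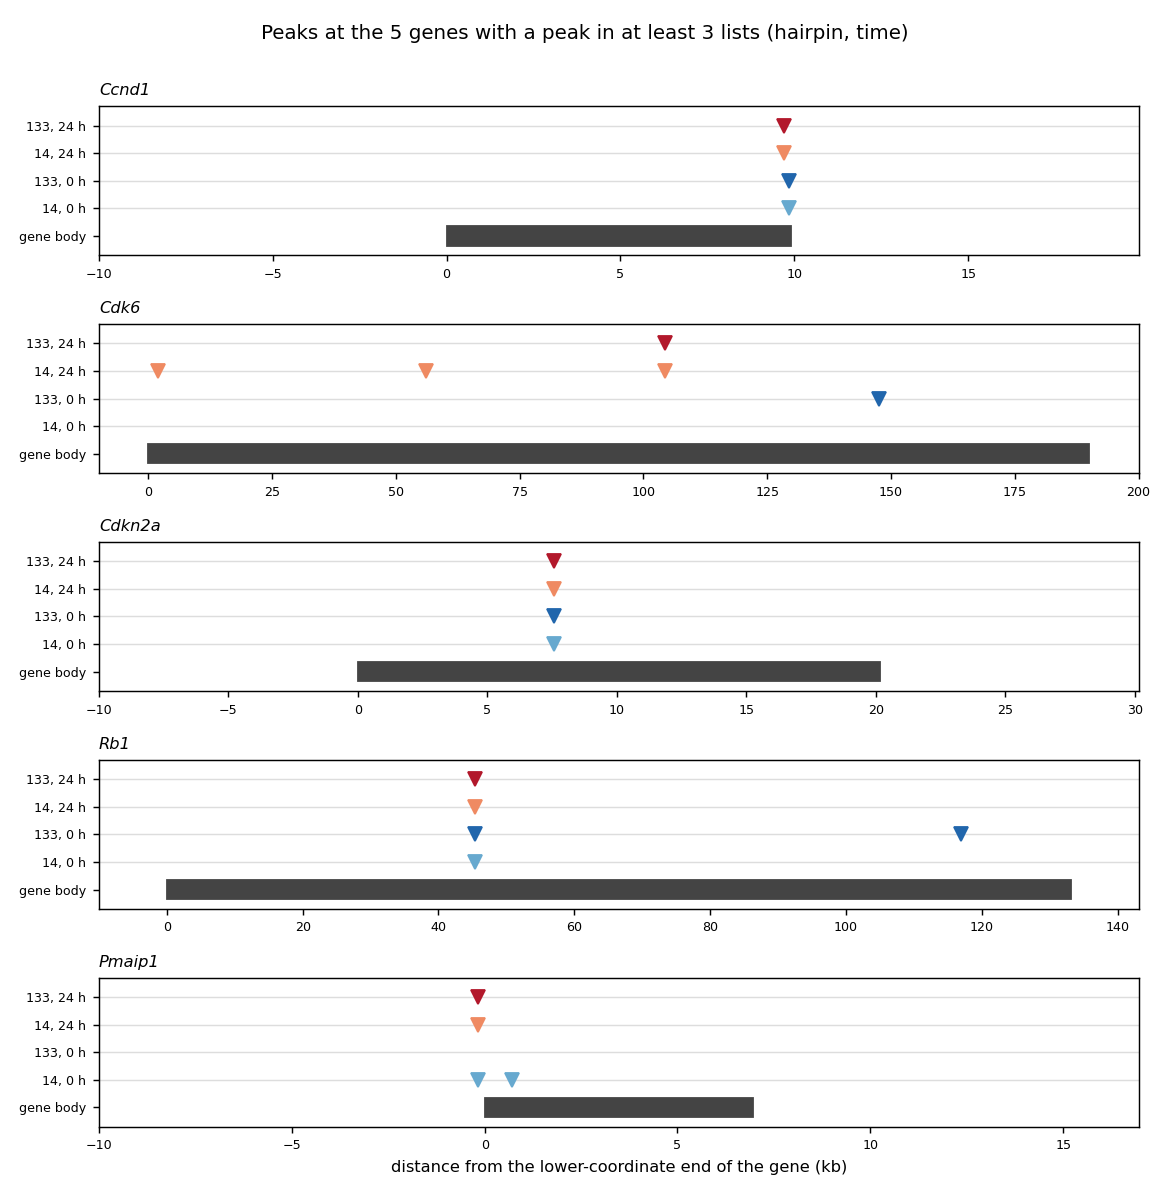
Positions of peak centres (triangles) along the 5 genes that have a peak in at least 3 lists, in kb from the lower-coordinate end of the gene, with 1 row per list and the gene body as a dark bar. Peaks at Ccnd1, Cdkn2a and Rb1 line up over all 4 lists, whereas the peaks of Cdk6 are spread over its body.

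In the Rb, E2f and Myc group 5 of 9 genes held a peak, 55.6% against 26.0% of all genes. There was 1 with hairpin 133 at 24 h (10.5% of all genes), and there were 3 with hairpin 14 at 24 h (9.72%), 3 with hairpin 133 at 0 h (12.7%) and 2 with hairpin 14 at 0 h (11.0%). With the gene body alone, 3 of the 9 held a peak in any list, 33.3% against 18.4% of all genes. Where a peak counted only for its nearest gene, E2f1 and E2f4 had none. Rb1 (chr14:73192858-73325951) had a peak at 73238126 to 73238276 with both hairpins at 24 h and at 73238128 to 73238278 with both hairpins at 0 h. That region lies within the body of Rb1 and also within Lpar6 (73237891 to 73240358), a lysophosphatidic acid receptor gene nested in it, so it cannot be given to Rb1 alone. A further peak of Rb1, at 73309746 to 73309896, was in the list of hairpin 133 at 0 h only. The Rb relatives Rbl1 and Rbl2 had none, and their nearest peak in any list was 92.3 and 55.4 kb away.

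The E2f genes, whose proteins Rb binds, were listed with different hairpins. E2f2, an E2f factor with a known part in the maturation of mouse erythroblasts, had 1 peak with hairpin 14 at 24 h, 211 bp above its body, 1 with hairpin 14 at 0 h, and none with hairpin 133, whose nearest peaks were 235 kb away at 24 h and 52.5 kb away at 0 h. E2f1 had a peak 7909 bp above its body and E2f3 one in its body, both with hairpin 133 at 0 h only. The centre of the E2f1 peak was slightly nearer the neighbouring gene Pxmp4, at 7.88 kb, than E2f1, at 7.98 kb. E2f4, a mostly repressive E2f, had a peak with hairpin 14 at 24 h only, 6830 bp below its body and within the neighbouring gene Exoc3l. Myc and Mycn had none in any list, with the nearest peak 71.5 kb from Myc and 49.5 kb from Mycn.

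The 0 h peak of E2f2, at 136180765 to 136180915 on chromosome 4, was the only one on a RefSeq promoter window among the 36 of the 45 genes that have such windows, against 2.04% of all 17492 protein-coding genes with windows. It covered the last 67 bases of the window of the inner start site, from base 234 on, and its centre was 58 bp past that start. The outer start site is 8.51 kb upstream. Both windows are shown, the outer one chosen after the peaks had been seen, with CpG in capitals, to compare the start under the peak with the one that has none.
E2f2, inner start site, chr4:136180532-136180831, plus strand: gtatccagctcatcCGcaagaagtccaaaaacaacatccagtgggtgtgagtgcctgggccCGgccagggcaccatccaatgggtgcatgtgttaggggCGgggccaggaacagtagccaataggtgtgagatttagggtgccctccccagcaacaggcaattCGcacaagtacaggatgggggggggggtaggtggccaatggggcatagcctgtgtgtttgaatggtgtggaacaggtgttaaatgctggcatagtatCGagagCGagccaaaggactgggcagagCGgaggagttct
E2f2, outer start site, chr4:136172024-136172323, plus strand: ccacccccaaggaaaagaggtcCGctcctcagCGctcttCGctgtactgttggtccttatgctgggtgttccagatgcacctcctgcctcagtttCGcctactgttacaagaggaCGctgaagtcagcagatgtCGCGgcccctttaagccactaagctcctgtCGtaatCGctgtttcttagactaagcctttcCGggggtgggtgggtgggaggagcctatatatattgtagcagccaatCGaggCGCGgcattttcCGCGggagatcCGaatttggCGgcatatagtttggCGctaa
The inner window held 7 CpG, 3 of them in the bases under the peak, and the outer window held 18. As at Cdkn2a, the peak was at the start with fewer CpG in its window. The CpG content of the peak bases outside these windows is not known, and a pattern over other genes was not tested. The GC box occurred 1 time in the inner window and 0 times in the outer one.

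Of the 19 genes of p53 signalling and apoptosis, 6 held a peak in some list, 31.6% against 26.0% of all genes. There were 3 with each hairpin at 24 h (15.8%, against 10.5% and 9.72% of all genes with hairpins 133 and 14). There were 2 with each at 0 h (10.5%, against 12.7% and 11.0% of all genes). At 0 h the share of this largest of the 4 roles was thus slightly below that of all genes but close to it, with 2 genes behind each value. With the gene body alone, 5 of the 19 held a peak in any list, 26.3% against 18.4% of all genes. Pmaip1 (chr18:66458604-66465558), a Bcl2-family death gene induced by p53, had a peak just outside its lower-coordinate end at 66458357 to 66458507 with both hairpins at 24 h, and at 66458355 to 66458505 with hairpin 14 at 0 h. The gap to the gene was 97 bp at 24 h and 99 bp at 0 h. Hairpin 14 at 0 h had a further peak in the body at 66459243 to 66459393. With hairpin 133 at 0 h the nearest peak was 113 kb away, so Pmaip1 was the one gene near whose end 3 lists, and not the fourth, held the same region.

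The p53 relatives Trp63 and Trp73 held peaks deep in long bodies. Trp63 (208 kb) had a peak at 25870912 to 25871062 on chromosome 16 with hairpin 14 at 24 h and at 25870900 to 25871050 with hairpin 133 at 0 h. Those lists share neither hairpin nor time, and the peaks overlapped by 139 bp. Trp73 had 1 peak, with hairpin 14 at 24 h, 25.4 kb past its nearest RefSeq start. Mdm2, the ubiquitin ligase that destroys p53, had 1 peak with hairpin 14 at 0 h, in its body and 0.641 kb from its lower-coordinate end, which is 21.2 kb past its start.

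Bcl2l11 (Bim), a death gene of the Bcl2 family, had a peak 2875 bp below its body with hairpin 133 at 24 h, within the neighbouring gene Acoxl, and a different one 972 bp above its body with hairpin 133 at 0 h. Apaf1, the scaffold of the apoptosome, had 1 peak with hairpin 133 at 24 h, 2.67 kb past its start. Trp53 had no peak in its window. The nearest was 35.4 kb away with hairpin 133 at 24 h, 17.3 kb with hairpin 14 at 24 h, 142 kb with hairpin 133 at 0 h and 414 kb with hairpin 14 at 0 h. Mdm4, Bbc3, Bax, Bak1, Bcl2, Mcl1, Casp8, Casp9, Fas, Gadd45a, Gadd45b and Ccng1 also had none. Among these, Ccng1, a p53-induced cyclin, stood farthest from any listed region, at 642 kb or more in every list.

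Between the times, 12 of the 45 genes had a peak at 24 h with either hairpin (15.7% of all genes) and 15 at 0 h (17.9%). At both times 8 genes had one (7.57% of all genes), namely Bcl2l11, Ccnd1, Cdk6, Cdkn2a, E2f2, Pmaip1, Rb1 and Trp63. At 24 h only there were 4 genes (8.14% of all genes), Apaf1, Ccnd3, E2f4 and Trp73. At 0 h only there were 7 (10.3%), Ccna2, Ccne1, Ccne2, Cdk1, E2f1, E2f3 and Mdm2. Of the 7 cyclin and kinase genes with a peak, 4 were thus in 0 h lists only. Of these 4, only Ccna2 also had a peak with hairpin 14, and the other 3 rest on 1 library.

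Between the hairpins, 7 of the 45 genes had a peak with both, at whatever time (9.78% of all genes), 8 with hairpin 133 only (9.27%) and 4 with hairpin 14 only (6.95%). The genes with hairpin 133 only were Apaf1, Bcl2l11, Ccnd3, Ccne1, Ccne2, Cdk1, E2f1 and E2f3. Those with hairpin 14 only were E2f2, E2f4, Mdm2 and Trp73. At 0 h, the 12 genes with hairpin 133 and the 7 with hairpin 14 had 4 in common, Ccna2, Ccnd1, Cdkn2a and Rb1. These are also the genes with a region of both hairpins at 0 h, 8.89% of the 45 against 4.61% of all genes. The list of hairpin 133 at 0 h is also the longest, with 3900 peaks.

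The 45 genes together held 40 peaks, which merged into 26 regions. Of these, 19 (73.1%) came from 1 list, 3 from 2 lists, 1 from 3 lists and 3 (11.5%) from all 4, against 79.2% from 1 list and 2.36% from all 4 among the 10085 regions of the whole lists. Peaks that overlapped between lists of the same time had identical coordinates in 7 of 9 pairs, and the other two pairs, at Cdk6 and Ccna2, were 9 and 11 bp apart. Between lists of different times 0 of 15 pairs were identical, and the offset was 2 to 127 bp. Those pairs lay at Ccnd1, Cdkn2a, Rb1, Pmaip1 and Trp63 only. At Ccnd1, Cdkn2a and Rb1 the hairpins shared coordinates within a time, so the pairs of each repeat 1 offset and are not separate results. The same shares over all overlapping peaks of the lists were not counted here.

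By position, 27 of the 40 peaks lay in the body of the gene and 13 beside it. A peak in the body was found at 12 of the 45 genes in any list (18.4% of all genes), and a peak centred within 1 kb of either gene end at 4 (5.67% of all genes), namely Ccnd1, E2f2, Mdm2 and Pmaip1. Of the 21 peaks at genes with a RefSeq start, 6 were centred within 1 kb of it, 4 of them at Cdkn2a, 1 at E2f2 and 1 at Cdk6. Peaks just inside the 10 kb limit were those of Ccna2, 9986 and 9997 bp from the gene, and of Cdk1. Just outside it were peaks 12.4 kb from Mdm2 (hairpin 133 at 24 h), 13.7 kb from Cdk4 (hairpin 14 at 24 h) and 14.3 kb from Ccne2 (hairpin 14 at 0 h).

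The 45 genes had a median body of 10.5 kb, against 17.2 kb over all protein-coding genes. It was 21.9 kb for the 19 genes with a peak and 7.43 kb for the 26 without one, and the part of gene length in the counts was not tested. In length bands chosen after the counts were seen, a peak in any list was held by 8 of 26 genes under 20 kb (16.5% of all such genes), 8 of 15 from 20 to 100 kb (30.9%) and 3 of 4 above 100 kb (57.0%). The long gene without a peak was Bcl2, with 176 kb.

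**Figure D4:**
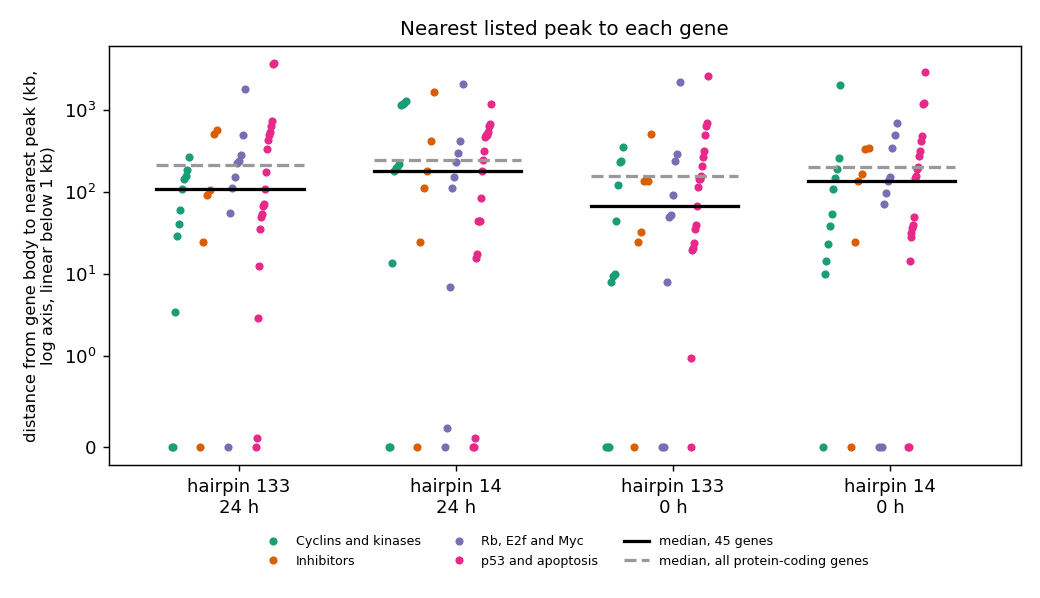
Distance in kb (log axis, linear below 1 kb) from the body of each of the 45 genes to the nearest peak in each list, with points coloured by role. Black lines are medians of the 45 genes and dashed grey lines medians of all protein-coding genes, and the black line is the lower in each list.

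The distance from the gene body to the nearest peak gave a value for every gene, also for those with none in the window. The median over the 45 genes was 109 kb with hairpin 133 at 24 h, 180 kb with hairpin 14 at 24 h, 67.3 kb with hairpin 133 at 0 h and 137 kb with hairpin 14 at 0 h. Over the 21631 protein-coding genes on chromosomes with peaks it was 211, 243, 157 and 198 kb in the same order. The cyclin and kinase genes had a median of 59.8 kb with hairpin 133 at 24 h, 199 kb with hairpin 14 at 24 h, 10.0 kb with hairpin 133 at 0 h and 54.3 kb with hairpin 14 at 0 h. That was the lowest of the 4 roles in each list but that of hairpin 14 at 24 h, where it was the highest.

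CpG content differs between these genes and the genome at large. The 47 promoter windows of the 36 genes held a median of 24 CpG, and the 21263 windows of all protein-coding genes a median of 13. A GC box was in 76.6% of the windows of the 36 genes and in 46.2% of all windows. Windows of genes with a peak in any list held a median of 27.5 CpG, and those of genes with none 22. The assay captures methylated, CpG-rich DNA, so both CpG content and methylation can bear on which genes are listed. Whether CpG content does so in the counts above was not tested. Except at E2f2, the peaks at genes with windows, 21 of the 40, did not lie on them. Ccnd1, Ccnd2, Ccna2, Ccne2, Rb1, E2f4, Myc, Trp63 and Pmaip1 have no window in the reference used. For peaks at these genes, Ccnd1, Rb1 and Pmaip1 among them, an overlap with a promoter window could not be judged.

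**Figure D5:**
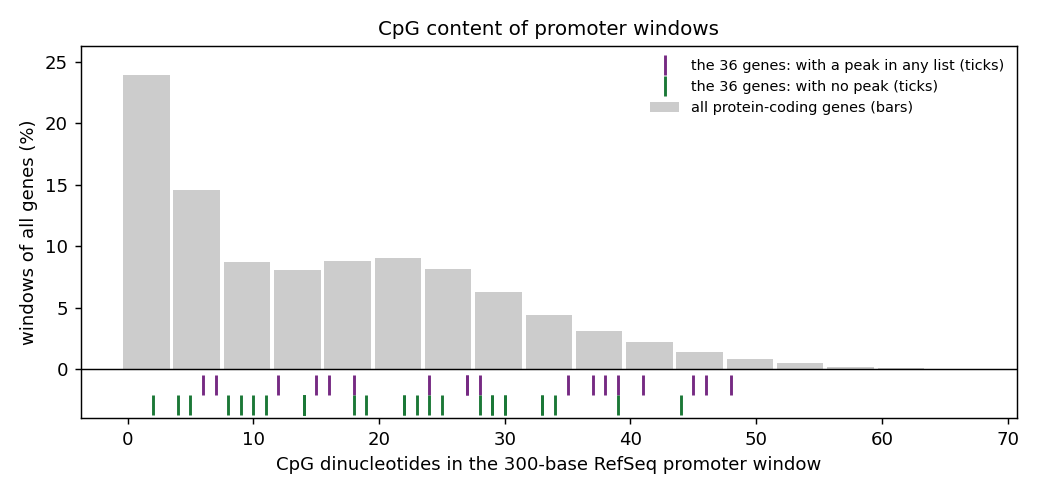
CpG dinucleotides in 300-base RefSeq promoter windows. Bars give the percentage of windows of all protein-coding genes in each class of CpG number, and ticks below give the windows of the 36 genes, by whether the gene has a peak in any list. The ticks spread from 2 to 48 CpG, and those of genes with and without a peak overlap over most of that range.

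Genes of the same pathway outside the 45 were looked at through a list of 75, of which 19 had a peak in any list (25.3%, against 26.0% of all genes). By role these were 3 of 21 cyclins and kinases, 0 of 4 inhibitors, 4 of 12 Rb, E2f and Myc genes and 12 of 38 p53 and apoptosis genes. By list there were 5 with hairpin 133 at 24 h, 4 with hairpin 14 at 24 h, 14 with hairpin 133 at 0 h and 9 with hairpin 14 at 0 h, which is 6.67%, 5.33%, 18.7% and 12.0% of the 75. All genes had 10.5%, 9.72%, 12.7% and 11.0% in the same order, as given above. The wider pathway was below all genes in both 24 h lists, so the higher share of the 45 genes at 24 h was not seen in it. At 0 h it was above all genes with hairpin 133 and close to them with hairpin 14. Each count is of 1 library, and none was tested. Bok, a death gene of the Bcl2 family, was the only one of the 75 with a region in all 4 lists (1.33%, against 1.28% of all genes). The region lay in its body on chromosome 1, at 93686405 to 93686555 with both hairpins at 24 h and at 93686451 to 93686601 with both hairpins at 0 h. Cdc25b, a phosphatase that activates Cdk1, had a peak beside it in 3 lists, 7.50 kb from its lower-coordinate end with hairpin 133 at 24 h and 7.47 kb with both hairpins at 0 h. Bok and Cdc25b were the only ones of the 75 with peaks in at least 3 lists (2.67%, against 4.79% of all genes).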

How the data were processed

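Methyl-CpG immunoprecipitation libraries of 4 groups, 1 library each, were used as peak lists. Per the submitters' processing notes, the authors used BWA, Picard, SAMtools and HOMER with build mm10. The sources used here give no versions or settings and do not say what the peaks were called against. The deposited files give only positions (chromosome and coordinates in base pairs). Their 0-based starts were turned into 1-based ones. Widths were 151 bp, except 1 peak of 120 bp with hairpin 133 at 24 h. Read depth is unknown, and the number of peaks per list limits the precision.

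Genes, start sites and promoter sequences came from RefSeq tables of GRCm38.p6. The tables used hold no exons, and strand only for genes with a promoter window, so exon, intron and untranslated region were not analysed here. Lists were merged where peaks overlapped by at least 1 bp. Counts were made with Python 3.11.15 and pandas 2.3.3, and the interval code was tested on simulated data. The genes and their grouping were chosen with earlier results of these data known. Genes with peaks in at least 3 lists are given with all coordinates, those in 1 or 2 lists by list and position, and the rest by name. From the wider list of 75, genes in at least 3 lists are named. Gene body only, 50 kb windows, peak centres, the nearest gene, removal of identical positions and a 50% overlap were the alternatives.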

Additional observations from a re-analysis of the deposited data

Results flagged for a closer look

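The number of the 45 genes with a peak moved in opposite directions between the times in the 2 hairpins. With hairpin 133 it was 8 at 24 h against 12 at 0 h, a difference of -4, and with hairpin 14 it was 9 at 24 h against 7 at 0 h, a difference of 2. In the Rb, E2f and Myc group the differences were -2 with hairpin 133 (1 gene at 24 h, 3 at 0 h) and 1 with hairpin 14 (3 genes at 24 h, 2 at 0 h). The share over all protein-coding genes was 10.5% at 24 h against 12.7% at 0 h with hairpin 133, and 9.72% at 24 h against 11.0% at 0 h with hairpin 14. The opposite direction was not kept in every recount: with the gene body alone hairpin 14 had 6 genes at each time, and with 50 kb windows 16 at 24 h against 17 at 0 h. Each value is from 1 library, the lists differ in length, and the difference between the hairpins was not tested.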

How the results depend on the processing

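Of 37 recounts of the 7 gene counts, 25 stayed within 1.5 times and 12 did not. With peak centres, with the nearest gene, and with a 50% overlap for shared regions, all stayed within it. The genes behind the counts did change. With the nearest gene Ccna2, Ccnd3, E2f1 and E2f4 had a peak in 0 lists, and with peak centres Ccna2 did. The 50% overlap left 2 genes with a region in all 4 lists (Cdkn2a and Rb1, without Ccnd1). With the gene body alone, 5 genes had a peak with hairpin 133 at 24 h (7.19% of all genes) and 7 with hairpin 133 at 0 h (8.84%), and the other counts stayed within 1.5 times. With 50 kb windows the counts were 14 and 16 at 24 h and 21 and 17 at 0 h (hairpins 133 and 14), against 21.5%, 19.6%, 26.1% and 22.7% of all genes, and 9 genes had a region of both hairpins at 0 h (9.67%). Without identical positions the counts were 4 with hairpin 133 at 24 h, 5 with hairpin 14 at 24 h and 4 with hairpin 14 at 0 h. Regions of both hairpins were then left at 1 gene at 24 h (Cdk6) and 1 at 0 h (Ccna2), since the removal takes out shared peaks by its construction. By gene, a choice made after seeing the data, Ccnd1 and Cdkn2a then had a peak in 0 lists, and Rb1 and Pmaip1 in 1 each. The positions have no scores, so no stricter threshold could be set. The times were set side by side within each hairpin as counts only, and with 1 library a group no paired test was run.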
